A study of Mus musculus with 6 samples.

Results

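The sodium, calcium and pacemaker channel genes are 32 genes whose products let sodium or calcium into excitable cells, or set how such channels behave. They were taken by symbol, and 32 of the 32 were among the 32285 genes of the count matrices. They comprise 5 sodium channel pore genes, 3 sodium channel beta subunit genes, 5 high-voltage and 3 low-voltage calcium channel pore genes, 4 alpha2delta and 4 calcium channel beta subunit genes, 3 pacemaker channel genes, 3 genes of the sodium leak channel complex and 2 calcium-activated cation channel genes. The matrices come from single-nucleus RNA sequencing of the pons and medulla, the part of the brainstem in which the breathing rhythm arises. In the CIH group, male C57BL6/J mice weaned on postnatal day 21 went through chronic intermittent hypoxia from postnatal day 22 to 43, with nitrogen let in for 60 s down to 4.5 to 5% oxygen and air let in for up to 5 min back to 21%, 80 times a day over 8 h for 21 days. In the Normoxia group, male C57BL6/J mice of the same age stayed in room air. There were 3 libraries of sorted nuclei per group, made with droplet 3' chemistry, and the number of mice behind a library is not given in the labels, so the p-values reflect how far these libraries vary and nothing broader.

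Voltage-gated sodium channels carry the upstroke of the action potential. High-voltage calcium channels couple it to transmitter release and to gene expression, and low-voltage (T-type) calcium channels drive rebound bursts. The pore subunit of a high-voltage calcium channel travels to the membrane with an alpha2delta and a beta subunit, which set its number and its gating. Pacemaker (HCN) channels open on hyperpolarization and bring the membrane back towards threshold. The leak channel NALCN, which works in a complex with UNC79 and UNC80, keeps neurons depolarized at rest, and in mice it has been studied in the brainstem neurons that sense carbon dioxide. Sodium leak, calcium-activated cation and calcium currents are all studied as sources of the respiratory rhythm of this region.

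Nuclei were kept from 500 genes upwards where mitochondrial RNA made up no more than 5% of UMIs (unique molecular identifiers, each standing for 1 captured RNA molecule), which left 40139 of 43836 barcodes. They were sorted into types by marker genes, and a nucleus counted for a class only where that class had at least 3 times the marker UMIs of every other class. There were 18551 neurons, of which 2666 were granule neurons (markers Gabra6, Fat2, Cbln3, Cdh15 and Neurod1, known from cerebellar granule cells), 1495 excitatory neurons with Slc17a6, 2288 glycinergic neurons and 1825 GABA neurons. Of the neurons, 9949 fitted no neuron type and entered only the sums of all neurons and of all nuclei. Glia and vessel types were 11719 oligodendrocytes, 382 oligodendrocyte precursors, 798 astrocytes, 1401 microglia and 791 endothelial cells. The 7 neuron markers summed to 7656 to 8761 CPM (UMIs scaled to 1000000 UMIs of that type in that library) in the 4 neuron types and to 595 to 1328 CPM in the 5 other types. These other types thus carried neuron-marker RNA at a low level, and their channel RNA is set beside it below. Levels are given in CPM. Each fold change is a log2 fold change with its SE from edgeR's quasi-likelihood test after rescaling by the trimmed mean of M-values, and adjusted p is the Benjamini-Hochberg value over all genes tested, with 0.05 as the threshold for a call.

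The libraries held 26733243, 28534969 and 40750363 UMIs in CIH and 30260893, 37399822 and 46754345 UMIs in Normoxia. CIH library 3 stood apart, with a median mitochondrial share of 0.366%, against 0.0624 to 0.0955% in the other 5 libraries. Libraries 1 and 2 were the nearest pair in each group: chi-square per gene was 2.38 for the CIH pair and 2.87 for the Normoxia pair, and 16.6 to 64.8 for the remaining pairs. CIH library 1 and Normoxia library 2 shared 1563 cell barcodes, 33.9% of the CIH library's and 21.1% of the Normoxia library's. These barcodes had a median of 7872 UMIs in CIH library 1 and 984 in Normoxia library 2. Of 243 of them typed as oligodendrocytes in CIH library 1, 231 were typed so in Normoxia library 2. A shared barcode had 7.18 to 8.74 times as many UMIs in CIH library 1 as in Normoxia library 2 (5th to 95th percentile). The shared barcodes held 76.0% of the UMIs of CIH library 1 and 6.87% of those of Normoxia library 2. Fits without them in Normoxia library 2 changed 0 calls of channel genes in any comparison below.

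The promoters of 4 channel genes are shown because the results on types below turn on their RNAs. Cacna2d1 (chr5:15934691-16374511, plus strand) and Cacna2d3 (chr14:28904943-29721864, minus strand) divide excitatory from inhibitory neurons, Hcn2 (chr10:79716634-79736108, plus strand) was highest in oligodendrocytes, and Nalcn (chr14:123276634-123627144, minus strand) had its highest mean in oligodendrocyte precursors, where its range overlapped that of GABA neurons (gene positions from GENCODE M21 on mm10). The sequences are the 250 bases before the start of each gene, 5′ to 3′ on the gene's strand, from RefSeq on GRCm38.p6, at chr5:15934441-15934690, chr14:29721865-29722114, chr10:79716384-79716633 and chr14:123627145-123627394. Capitals mark the GC box GGGCGG on either strand, which overlaps no other motif searched.
Cacna2d1: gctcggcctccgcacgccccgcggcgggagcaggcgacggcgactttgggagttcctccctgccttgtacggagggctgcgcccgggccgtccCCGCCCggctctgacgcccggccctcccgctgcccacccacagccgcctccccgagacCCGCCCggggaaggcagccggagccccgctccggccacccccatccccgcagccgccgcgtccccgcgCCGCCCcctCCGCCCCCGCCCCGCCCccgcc
Cacna2d3: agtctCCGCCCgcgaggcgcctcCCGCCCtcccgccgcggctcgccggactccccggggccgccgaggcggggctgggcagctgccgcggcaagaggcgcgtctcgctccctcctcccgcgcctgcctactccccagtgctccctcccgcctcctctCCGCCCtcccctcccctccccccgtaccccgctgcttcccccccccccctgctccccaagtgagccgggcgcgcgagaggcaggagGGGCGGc
Hcn2: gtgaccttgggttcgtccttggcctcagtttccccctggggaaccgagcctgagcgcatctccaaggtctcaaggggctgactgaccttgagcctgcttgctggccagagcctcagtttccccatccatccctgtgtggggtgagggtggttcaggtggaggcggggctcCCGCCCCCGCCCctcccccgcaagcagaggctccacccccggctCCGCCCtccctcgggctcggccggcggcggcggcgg
Nalcn: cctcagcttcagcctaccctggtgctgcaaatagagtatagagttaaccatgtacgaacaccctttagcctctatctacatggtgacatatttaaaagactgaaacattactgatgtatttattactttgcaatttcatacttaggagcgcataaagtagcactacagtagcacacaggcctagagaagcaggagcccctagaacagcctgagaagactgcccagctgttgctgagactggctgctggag
The Cacna2d1 window held 6 GC boxes, the Cacna2d3 window 4, the Hcn2 window 3 and the Nalcn window 0. Of 32851 promoters of the same length, 32.7% held at least 1, and 0.886% held 6 or more. The GC content was 82.4% for Cacna2d1, 80.0% for Cacna2d3, 70.4% for Hcn2 and 45.2% for Nalcn, against a median of 52.4% over all promoters. Both alpha2delta promoters shown are rich in GC although the RNAs lie in different neurons. These matches describe the letters of the windows only.

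Channel RNAs were mostly neuronal. Neurons were compared with the mean of the glial types, namely oligodendrocytes, their precursors, astrocytes and microglia, without endothelial cells. Of 31 tested channel genes, 29 were higher in neurons and 0 were lower, where 38.8% of all 14276 tested genes were higher and 29.6% lower. The median log2 fold change of the channel genes was 2.46, and that of all tested genes 0.05. Trpm5, a calcium-activated cation channel best known from taste cells, had 27 UMIs in all nuclei and was not tested. The 2 genes without a call were Cacna2d4, at -0.32 (SE 0.453), and Hcn2, at -0.01 (SE 0.109).

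All 5 sodium channel pore genes and all 5 high-voltage calcium channel pore genes were among those higher in neurons. Cacna1e, the R-type calcium channel pore, was higher by 3.33 on the log2 scale (SE 0.066, adjusted p = 6.28e-54). Unc80, the large scaffold of the leak channel complex, was higher by 3.15 (SE 0.054, adjusted p = 2.69e-57). Scn1a, the sodium channel of fast-spiking inhibitory neurons, was higher by 2.81 (SE 0.057, adjusted p = 3.15e-53). In the 6 libraries Scn1a lay between 320.3 and 532 CPM in granule and glycinergic neurons and between 31.9 and 50.7 CPM in oligodendrocytes, with no overlap.

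Of 25 genes whose products bind or anchor these channels, 21 were tested, and 20 were higher and 1 lower in neurons. Fgf14, which binds sodium channels at the axon initial segment, was higher by 2.90 (SE 0.052, adjusted p = 1.83e-56). Rims1, the active zone scaffold that holds calcium channels at release sites, was higher by 3.23 (SE 0.061, adjusted p = 7.03e-55). The lower one was Cacng4, an AMPA receptor auxiliary protein with sequence similarity to calcium channel gamma subunits, at -0.41 (SE 0.179, adjusted p = 0.0392). Its call was lost without CIH library 3, at -0.17 (SE 0.197, adjusted p = 0.483), without CIH library 2 and without Normoxia library 3, and with 3 other settings.

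**Figure D1:**
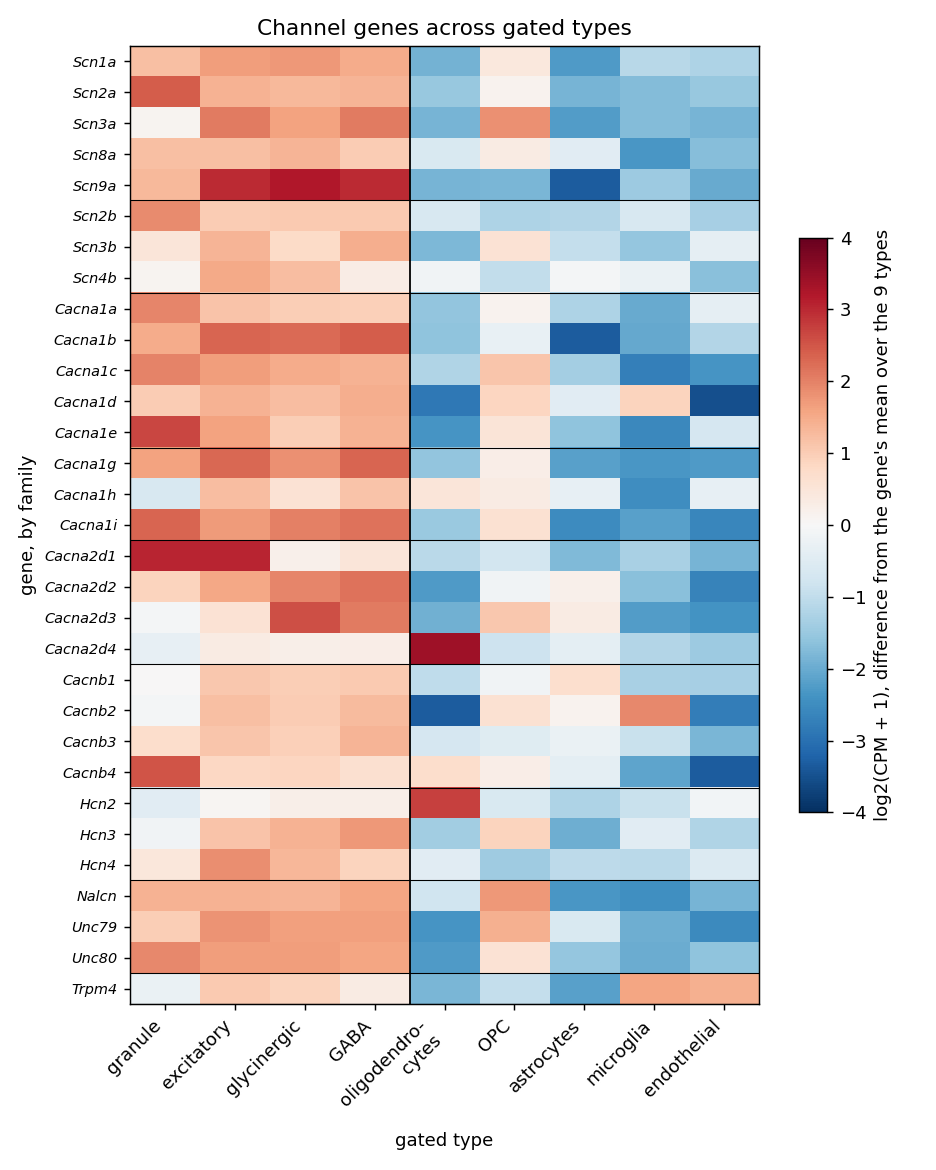
Each row is a channel gene, grouped by family, and each column a type. Colour is the mean log2(CPM + 1) over the 6 libraries minus the gene's mean over the 9 types. Most rows are red in the 4 neuron types left of the black line, while Hcn2 and Cacna2d4 are darkest in oligodendrocytes, Cacnb2 is also red in microglia and Trpm4 is red in microglia and endothelial cells.

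Alpha2delta subunit genes encode the extracellular subunit that carries calcium channels to the membrane, and Cacna2d1 and Cacna2d3 differed between excitatory and inhibitory neurons in opposite directions. Cacna2d1, whose product binds gabapentin, had 827, 877 and 827 CPM in excitatory Slc17a6 neurons in CIH and 763, 748 and 890.4 CPM there in Normoxia. It had 203.5, 118 and 84.8 CPM in glycinergic neurons in CIH, against 80.2, 99.0 and 139 CPM there in Normoxia. Granule neurons, at 732 to 954 CPM, lay with the excitatory neurons, and GABA neurons, at 97.9 to 179 CPM, with the glycinergic ones. Excitatory and inhibitory neurons did not overlap in any library, while CIH and Normoxia overlapped in each type. Against the other neuron types the fold change was 1.81 in excitatory neurons (SE 0.073, adjusted p = 3.56e-32) and -1.98 in glycinergic neurons (SE 0.091, adjusted p = 1.76e-29).

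Cacna2d3 showed the opposite order. It had 1136, 1153 and 1273 CPM in glycinergic neurons in CIH, against 1167, 1260.0 and 1013 CPM there in Normoxia. Excitatory neurons had 258, 273.5 and 281 CPM in CIH, against 303, 279 and 354 CPM in Normoxia. GABA neurons lay between 699.7 and 992 CPM, below every library of glycinergic neurons. Granule neurons ran from 108 to 319 CPM and overlapped with excitatory neurons. The fold change was 1.64 in glycinergic neurons (SE 0.083, adjusted p = 7.01e-27), 0.98 in GABA neurons (SE 0.088, adjusted p = 6.46e-15) and -0.97 in excitatory neurons (SE 0.098, adjusted p = 4.32e-13). Several genes lie on the opposite strand within Cacna2d3, and the sources used here do not state how strand was counted.

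Cacna2d2 followed the same side as Cacna2d3 over a smaller range. Its median was 202 CPM in GABA neurons, 182 CPM in glycinergic, 135 CPM in excitatory and 82.4 CPM in granule neurons. GABA and glycinergic neurons overlapped in their ranges. The fold change against the other neuron types was 0.66 in GABA neurons (SE 0.055, adjusted p = 2.71e-16) and 0.41 in glycinergic neurons (SE 0.052, adjusted p = 1.31e-09).

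**Figure D2:**
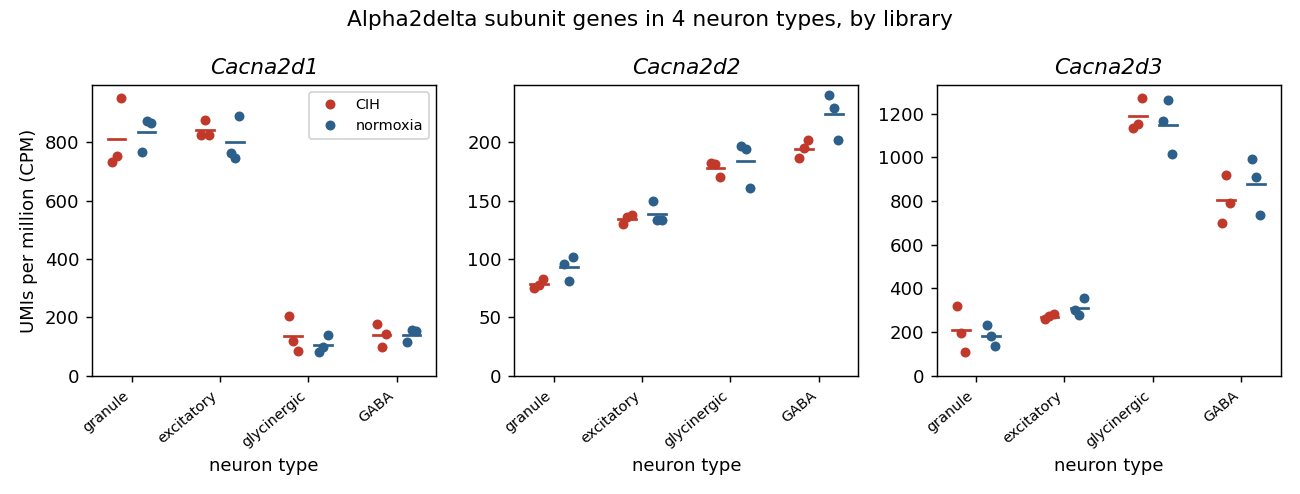
CPM of 3 alpha2delta genes (y axis) in 4 neuron types (x axis). Points are libraries, 3 CIH (red, left) and 3 Normoxia (blue, right), and lines are group means. Cacna2d1 is near 800 CPM in granule and excitatory neurons and at most 203.5 CPM in inhibitory ones, and Cacna2d3 is at least 699.7 CPM in inhibitory neurons only.

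Granule neurons, the small neurons whose axons release glutamate, were high in Cacnb4, Cacna1e and Scn2a and low in Scn9a, Scn3a and the pacemaker genes. Of the 31 tested channel genes, 9 were higher and 18 lower in granule neurons than in the other 3 neuron types, where 26.0% of all tested genes were higher and 26.3% lower. Cacnb4, a beta subunit known for the ataxia of mice that lack it, had 1092, 1134 and 1051 CPM in granule neurons in CIH, against 1157, 1193 and 929 CPM there in Normoxia. Excitatory neurons had 276 to 438 CPM, so the types did not overlap. The fold change was 1.78 (SE 0.063, adjusted p = 2.89e-37). Cacna1e, the R-type pore, lay between 789.7 and 1009 CPM in granule neurons and between 253 and 504 CPM in the other neuron types, with a fold change of 1.40 (SE 0.058, adjusted p = 1.99e-33).

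The other 7 higher genes were Cacna2d1 at 1.84 (SE 0.076), the axonal sodium channel pore Scn2a, Scn2b, Cacna1a, which forms the P/Q-type channel of nerve terminals, the L-type pore Cacna1c, the T-type pore Cacna1i and Unc80. Scn2a lay between 663 and 845 CPM in granule neurons, above every library of the other neuron types. The genes lower in granule neurons were led by Scn9a, a sodium channel pore best known from pain-sensing neurons. Scn9a had 96.2, 75.5 and 65.3 CPM in granule neurons in CIH, against 76.0, 69.5 and 141 CPM there in Normoxia. Excitatory neurons had 215 to 368 CPM, so the types did not overlap, and the fold change was -1.70 (SE 0.086, adjusted p = 2.08e-28). Scn3a, a sodium channel pore most abundant before birth, was lower at -1.70 (SE 0.102, adjusted p = 1.98e-24) and Cacnb2 at -1.22 (SE 0.075, adjusted p = 9.42e-24).

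All 3 pacemaker genes were lower in granule neurons, Hcn3 at -1.65 (SE 0.228), Hcn4 at -1.02 (SE 0.251) and Hcn2 at -0.60 (SE 0.101). Hcn4, the slow pacemaker channel of the heart, was highest in excitatory neurons. It had 8.04, 8.66 and 8.68 CPM in excitatory neurons in CIH, against 10.3, 6.77 and 9.52 CPM there in Normoxia. These levels are low but did not overlap with any other tested neuron type. Glycinergic neurons had 4.81 to 6.61 CPM, GABA neurons 2.63 to 5.41 CPM and granule neurons 1.79 to 4.40 CPM. Its fold change in excitatory neurons was 1.11 (SE 0.172, adjusted p = 3.48e-07).

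In excitatory Slc17a6 neurons 15 channel genes were higher and 5 lower, where 15.4% of all tested genes were higher and 11.9% lower. Scn4b, a beta subunit tied to resurgent sodium current, was higher in them by 1.10 (SE 0.143, adjusted p = 2.25e-09). Its level there was 12.5 to 19.4 CPM, against 5.79 to 7.97 CPM in GABA neurons. Scn3a was higher by 0.84 (SE 0.074) and Cacnb2 by 0.51 (SE 0.063). The genes lower in excitatory neurons included Cacna1i at -0.49 (SE 0.095) and Cacnb4 at -0.48 (SE 0.069).

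In glycinergic neurons 12 were higher and 10 lower, where the shares of all tested genes were 15.0% and 12.2%. Scn9a was higher by 0.77 (SE 0.064, adjusted p = 2.3e-16), Cacna1e lower at -0.95 (SE 0.063, adjusted p = 7.57e-21) and Scn2a lower at -0.47 (SE 0.06, adjusted p = 1.11e-09). The count of lower genes was 5 without Normoxia library 2, where 9.35% of all genes were lower. In GABA neurons 13 were higher and 10 lower, where the shares were 11.6% and 9.1%. Hcn3 was higher by 0.98 (SE 0.161) and Scn3a by 0.73 (SE 0.078), while Cacna2d1 at -1.67 (SE 0.094), Cacnb4 at -0.79 (SE 0.072) and Cacna1e at -0.41 (SE 0.063) were lower.

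Each of the 5 non-neuronal types had channel genes above the level of its neuron-marker RNA. The neuronal level here is the unweighted mean CPM of the 4 tested neuron types in the same library. In every library 17 of 32 channel genes stood at a larger share of their neuronal level than the neuron markers did in oligodendrocytes. The count was 17 in oligodendrocyte precursors, 9 in astrocytes, 5 in microglia and 4 in endothelial cells. The share of all genes above the markers was not computed, and the gate itself limits neuron-marker RNA in these types. The counts thus do not set channel genes apart from other genes. The neuron markers stood at 6.5 to 8.21% of their neuronal level in oligodendrocytes, 14.7 to 17.8% in precursors, 9.36 to 10.5% in astrocytes, 7.86 to 11.8% in microglia and 9.17 to 14.1% in endothelial cells. Hcn2 was above that share in all 5 types. That yardstick allows for neuron RNA only, and Hcn2 was highest in oligodendrocytes. The oligodendrocyte markers summed to a mean of 269 CPM in precursors, 275.5 CPM in astrocytes, 363.5 CPM in microglia and 529.5 CPM in endothelial cells. In oligodendrocytes the sum was 12770 CPM. The part of oligodendrocyte RNA in the Hcn2 levels of the other types was not tested.

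Hcn2, a pacemaker channel gene that has also been described in mouse oligodendrocytes, had 419.6, 408 and 317 CPM in oligodendrocytes in CIH, against 448, 429 and 354 CPM there in Normoxia. All neurons together had 61.7, 59.9 and 62.4 CPM in CIH, against 69.9, 66.7 and 67.4 CPM in Normoxia. Oligodendrocytes stood at 544 to 743% of the neuronal level, which is the mean of the 4 tested neuron types and not the level in all neurons. They did not overlap with neurons, while CIH and Normoxia overlapped in oligodendrocytes. The range in oligodendrocyte precursors was 16.1 to 58.6 CPM. Contrasts of oligodendrocytes, astrocytes and microglia with the other glial types, without endothelial cells, were added after these levels were seen. They thus give the size and its error and are no independent test. Hcn2 was higher in oligodendrocytes by 3.81 (SE 0.102, adjusted p = 1.61e-45). In that contrast 7 channel genes were higher and 12 lower, where 32.2% of all tested genes were higher and 22.2% lower.

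Cacna2d4, the alpha2delta gene known from the retina, had 36.8, 36.7 and 30.3 CPM in oligodendrocytes in CIH, against 34.2, 34.0 and 39.8 CPM there in Normoxia. All neurons together had 2.69 to 3.53 CPM, with no overlap. It was higher in oligodendrocytes than in the other glial types by 4.52 (SE 0.281, adjusted p = 6.85e-24). Cacnb4, at 257.5 to 361.5 CPM in oligodendrocytes, stood at 51.3 to 66.4% of its neuronal level and was higher there by 1.71 (SE 0.094, adjusted p = 9.27e-27). The genes lower in oligodendrocytes were led by Cacnb2 at -3.86 (SE 0.099), Cacna1d at -3.02 (SE 0.098) and Unc79 at -1.79 (SE 0.125). Cacnb2 had 15.9 to 33.2 CPM in oligodendrocytes and 277 to 461 CPM in their precursors, without overlap.

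Oligodendrocyte precursors are the dividing cells that also receive synapses. They had 23 channel genes higher and 1 lower than the other glial types, where 17.7% of all tested genes were higher and 14.7% lower. Nalcn had 586, 433 and 422 CPM in precursors in CIH, against 584, 486 and 497 CPM there in Normoxia. Oligodendrocytes had 75.9 to 94.3 CPM, so the types did not overlap. The precursors stood at 103 to 150.0% of the neuronal level, above it in every library, and the fold change was 3.48 (SE 0.112, adjusted p = 4.58e-40). Unc79, the partner of NALCN, was higher by 3.02 (SE 0.137, adjusted p = 4.62e-31) and Cacna1c, an L-type pore, by 2.78 (SE 0.128, adjusted p = 1.08e-30). The lower gene was Hcn2, at -0.73 (SE 0.247, adjusted p = 0.0165), and its call was lost without CIH library 1 at -0.63, without Normoxia library 1 at -0.66 or without Normoxia library 3 at -0.60. The precursors numbered 32 to 164 nuclei per library.

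Microglia, the resident immune cells, had 3 channel genes higher and 19 lower, where 24.3% of all tested genes were higher and 28.3% lower. Cacnb2, a calcium channel beta subunit, had 947, 944 and 1069 CPM in microglia in CIH, against 865, 974 and 814.5 CPM there in Normoxia. This was 161 to 231% of the neuronal level, without overlap, and the fold change against the other glial types was 2.45 (SE 0.083, adjusted p = 4.74e-39). Cacna1d, the L-type pore with a low activation threshold, lay between 362 and 435 CPM in microglia, 66.2 to 95.7% of the neuronal level, and was higher by 1.37 (SE 0.097, adjusted p = 6.76e-21). Trpm4, a calcium-activated cation channel, had 13.9 to 54.0 CPM in microglia, 124 to 378% of the neuronal level, and was higher by 3.05 (SE 0.304, adjusted p = 3.31e-14). Endothelial cells, which were not in that contrast, also had Trpm4 above the neuronal level, at 120.0 to 357%. The medians of Trpm4 were 24.66 CPM in microglia and 23.86 CPM in endothelial cells, with overlap. The genes lower in microglia included Cacnb4 at -2.54 (SE 0.165), Cacna1c at -2.63 (SE 0.175) and Scn8a, the sodium channel of the nodes of Ranvier, at -2.25 (SE 0.15).

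In astrocytes 7 channel genes were higher and 9 lower, where 21.8% of all tested genes were higher and 19.2% lower. Cacna2d2 was higher by 1.68 (SE 0.179, adjusted p = 6.78e-13), Cacna2d3 by 1.44 (SE 0.169, adjusted p = 2.21e-11) and Cacnb2 by 0.46 (SE 0.107, adjusted p = 0.00026). Cacna2d3 lay between 185 and 352 CPM in astrocytes, against 345 to 497 CPM in oligodendrocyte precursors. Nalcn at -1.63 (SE 0.172), Scn1a at -1.17 (SE 0.175) and Hcn2 at -1.47 (SE 0.222) were lower.

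**Figure D3:**
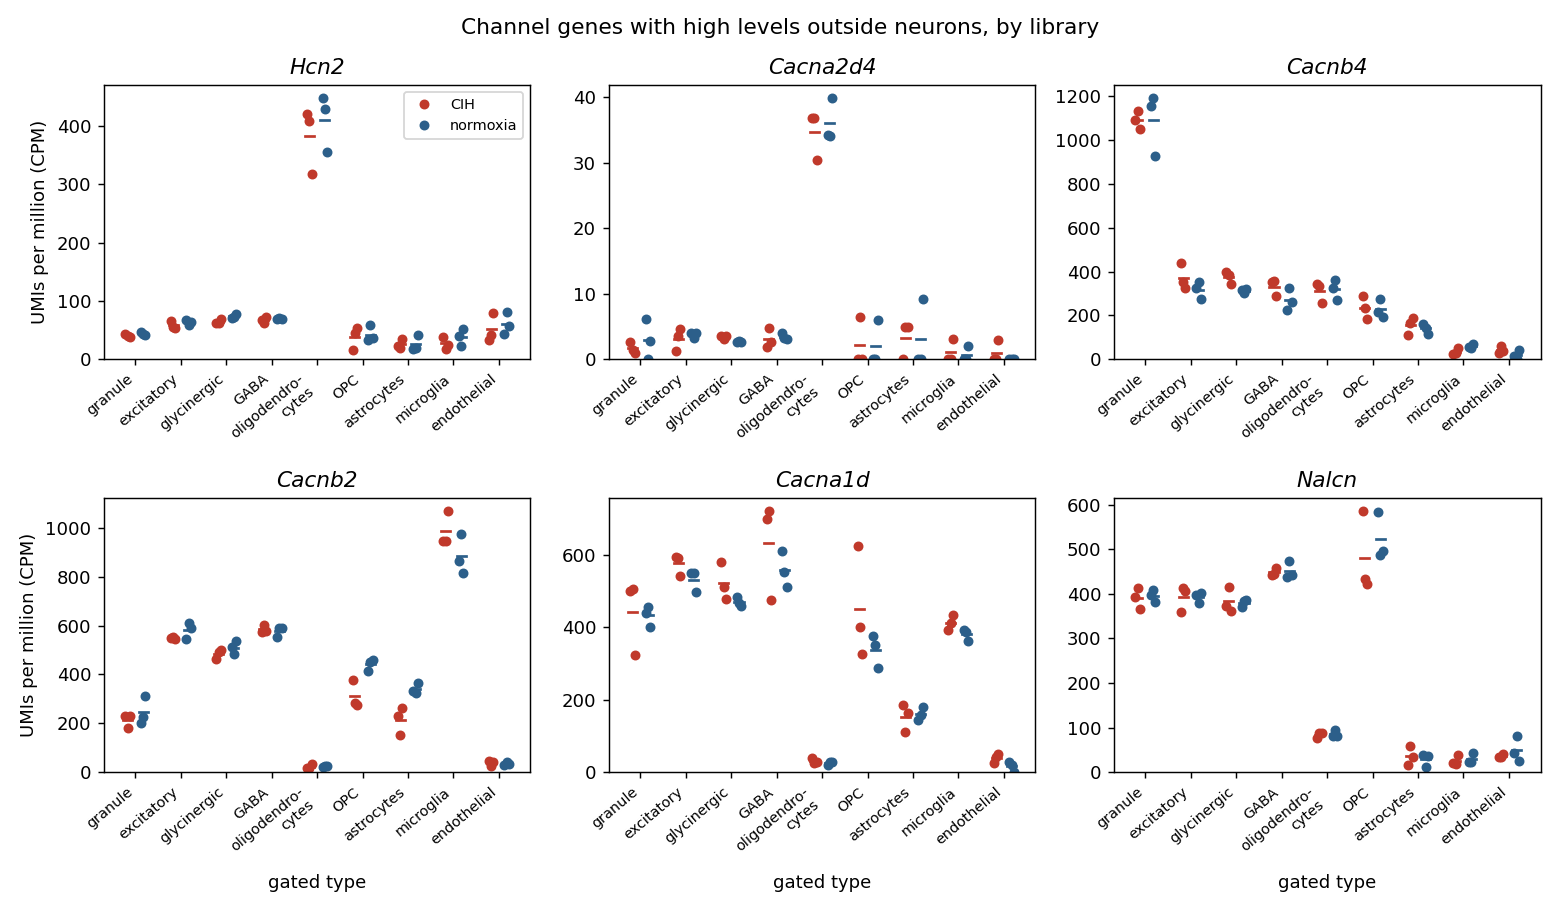
CPM of 6 channel genes (y axes) in 9 types (x axes). Points are libraries, 3 CIH (red, left) and 3 Normoxia (blue, right), and lines are group means. Hcn2 and Cacna2d4 stand apart in oligodendrocytes, Cacnb2 is highest in microglia at 814.5 to 1069 CPM, and Nalcn in oligodendrocyte precursors is as high as in neurons.

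The design asks which of these genes differ after CIH, and 0 channel genes were called in any of the 11 sums compared. In all neurons 0 of 31 were called, where 0.00556% of all genes tested were. The share of all genes called was 0.0101% in all nuclei, 0.0148% in oligodendrocytes (0.897% with the replicate block, which also called 0 channel genes there), 0.0678% in oligodendrocyte precursors, 0.0164% in microglia and 0.0% in each other sum. At an unadjusted p under 0.05 there were 12 of 31 channel genes in all neurons, 7 higher and 5 lower in CIH, where 13.2% of all genes had such a p. The corresponding counts were 0 of 24 in granule neurons, 3 of 31 in excitatory, 2 of 31 in glycinergic and 1 of 29 in GABA neurons, with 3.31, 6.93, 6.45 and 5.68% of all genes. In all nuclei it was 8 of 31, where 11.0% of all genes had such a p, led by Scn3a at -0.34 (SE 0.085, adjusted p = 0.344) and Scn3b at -0.32 (SE 0.095, adjusted p = 0.378). The channel genes' share stood above that of all genes in all neurons and in all nuclei, and was near or below it within the 4 neuron types. Overlap between the groups is given below for single genes picked from these same values. How many of all genes had groups without overlap was not counted, so a lack of overlap does not set these genes apart.

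Cacna1e came nearest to a call in all neurons. It had 502, 529 and 479 CPM in CIH, against 395, 423 and 389 CPM in Normoxia, so the groups did not overlap. The fold change was 0.32 (SE 0.059, adjusted p = 0.158). Within types the direction was not shared: granule neurons had 789.7, 892 and 870.5 CPM in CIH, against 896, 1009 and 912 CPM in Normoxia, with every CIH library lower. Excitatory neurons had 504, 449.8 and 447 CPM in CIH, against 399, 442 and 350.1 CPM in Normoxia, with every CIH library higher by a narrow margin. The fold change was -0.13 (SE 0.103) in granule and 0.21 (SE 0.097) in excitatory neurons. In glycinergic neurons it was 0.13 (SE 0.082) and in GABA neurons 0.05 (SE 0.101), all without a call. The 5 granule markers summed to 71.9, 47.2 and 14.9 CPM in excitatory neurons in CIH, against 19.2, 23.1 and 20.1 CPM there in Normoxia, high in CIH libraries 1 and 2, and their part in the result was not tested. The difference between these 2 effects, granule minus excitatory neurons, was -0.34 (SE 0.133, limma, adjusted p = 0.998 over all genes), where 0 of 24 channel genes and 0.0% of all genes were called. At an unadjusted p under 0.05 it was 1 of 24, this gene, where 4.18% of all genes had such a p.

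Scn9a was nearest in the other direction. It had 226, 226 and 196 CPM in all neurons in CIH, against 279.9, 277 and 344 CPM in Normoxia, without overlap, at a fold change of -0.48 (SE 0.104, adjusted p = 0.169). In glycinergic neurons it had 302, 328 and 229 CPM in CIH, against 348, 344 and 396 CPM in Normoxia, without overlap, at -0.36 (SE 0.113, adjusted p = 0.682). In excitatory neurons the fold change was -0.34 (SE 0.125, adjusted p = 0.678) and in granule neurons -0.21 (SE 0.257), and there the groups overlapped. Scn9a was thus below 0 in each of these neuron types without a call.

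Cacnb4 had 563, 591 and 394 CPM in all neurons in CIH, against 366, 389 and 325 CPM in Normoxia. The groups did not overlap, by a narrow margin at CIH library 3, and the fold change was 0.52 (SE 0.136, adjusted p = 0.212). Within granule neurons it was 0.01 (SE 0.108). In glycinergic neurons it was 0.25 (SE 0.077, adjusted p = 0.682), with 401, 384.5 and 342 CPM in CIH, against 316, 305 and 321 CPM in Normoxia. The granule markers in glycinergic neurons summed to 112, 68.5 and 14.5 CPM in CIH, against 24.7, 31.7 and 25.3 CPM in Normoxia, and their part in the values of Cacnb4 and Scn9a there was not tested. In GABA neurons the groups overlapped for Cacnb4, at 0.28 (SE 0.129, adjusted p = 0.866). Without CIH library 3, the fit called 3 channel genes in all neurons, where 4.98% of all genes were called: Cacnb4 at 0.67 (SE 0.072, adjusted p = 0.00313), Cacna1e at 0.34 (SE 0.059, adjusted p = 0.0156) and Scn2a at 0.36 (SE 0.056, adjusted p = 0.00952). It also called 3 in all nuclei, where 2.62% were called. This fit leaves CIH libraries 1 and 2, the nearest pair, at a chi-square per gene of 2.38. Its p-values thus rest on a small spread within CIH, and the labels do not give whether these libraries are independent. DESeq2 on all 6 libraries called Cacna1e, Cacnb4 and Scn9a in all neurons, where 1.81% of all genes were called.

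The make-up of the neurons also differed between libraries. Granule neurons were 28.1, 33.1 and 9.43% of neurons in CIH and 11.7, 10.7 and 5.33% in Normoxia. The 5 granule markers summed to 299, 340.0 and 117 CPM in all neurons in CIH, against 103, 120.0 and 66.8 CPM in Normoxia, and 0 of the 5 were at 0. Both are high in the first and second CIH libraries. In CIH library 3 the granule share lay below that of Normoxia libraries 1 and 2. Cacna1e in all neurons was above, and Scn9a below, every Normoxia library in CIH library 3 too. Of the 9 channel genes higher in granule neurons than in other neuron types, 8 had a fold change above 0 in all neurons in CIH, with a median of 0.25. Of the 18 lower in granule neurons, 16 were below 0, with a median of -0.12. The same counts over all genes were not made, and the part of make-up in these fold changes was not tested. Within granule neurons 4 of the 9 were above 0 in CIH and 8 of the 12 tested lower ones below 0. In the sum of typed neurons other than granule neurons, 0 of 31 channel genes were called and 3 had an unadjusted p under 0.05, namely Cacnb4 at 0.23 (SE 0.079), Cacna1e at 0.18 (SE 0.07) and Scn9a at -0.35 (SE 0.102). The fold changes of Cacnb4, Cacna1e and Scn9a were smaller there than in all neurons. That sum also lacks the 9949 neurons that fitted no neuron type, so it differs from all neurons by more than granule neurons. The part of each was not tested. The granule markers summed to 90.2, 70.2 and 17.4 CPM in that sum in CIH, against 22.4, 33.0 and 23.0 CPM in Normoxia, and the part of granule RNA in what remained was not tested.

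**Figure D4:**
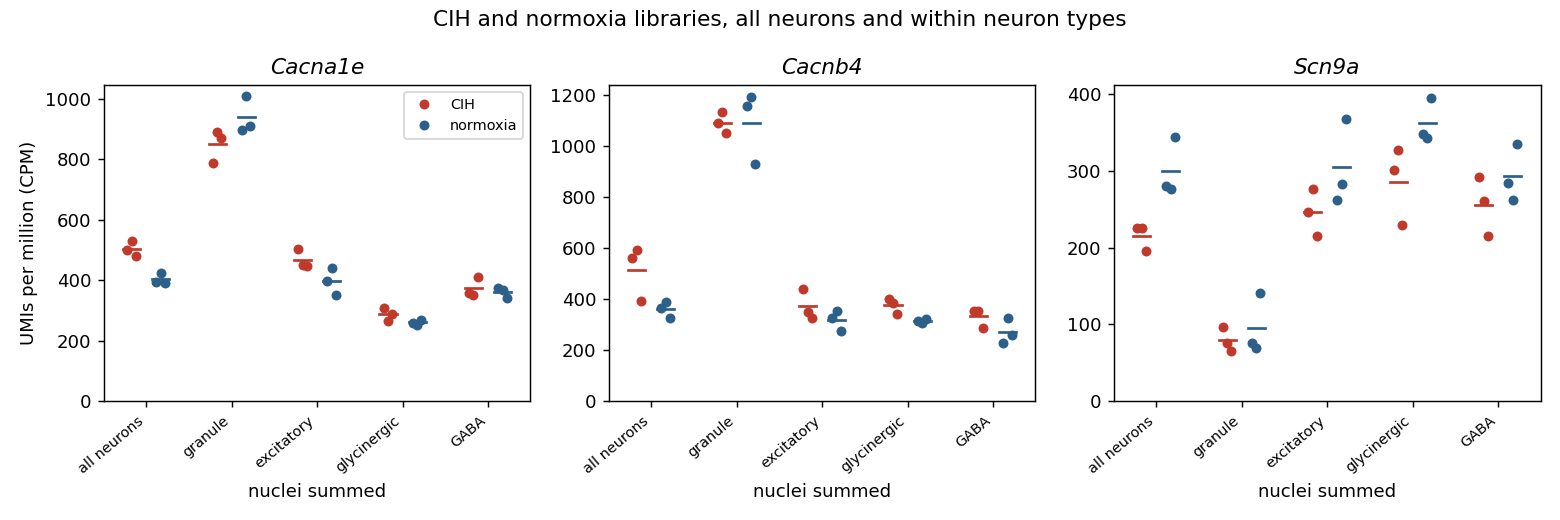
CPM of 3 channel genes (y axes) in all neurons and in 4 neuron types (x axes). Points are libraries, 3 CIH (red, left) and 3 Normoxia (blue, right), and lines are group means. In all neurons the groups do not overlap for any of the 3 genes, whereas in granule neurons Cacna1e is lower in each CIH library and Cacnb4 and Scn9a overlap. The genes were picked from these same values, and the share of all genes without overlap was not counted.

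Other channel genes closest to a call had small differences. Scn3a, the prenatal sodium channel pore, had 121, 125 and 124 CPM in all neurons in CIH, against 155, 164 and 134 CPM in Normoxia, at -0.29 (SE 0.075, adjusted p = 0.206). Scn3b, a beta subunit, had 28.0, 20.5 and 24.7 CPM in GABA neurons in CIH, against 37.5, 32.8 and 29.8 CPM in Normoxia, at -0.43 (SE 0.184, adjusted p = 0.862). The groups did not overlap for either gene. Cacna2d3 in excitatory neurons was at -0.23 (SE 0.102, adjusted p = 0.694), with overlap. In granule neurons the smallest p belonged to the T-type pore Cacna1g, at -0.35 (SE 0.201), and to Cacna2d2, at -0.22 (SE 0.135), both with overlap.

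Nalcn differed little in any neuron type. Its fold change was 0.01 (SE 0.061) in all neurons, -0.01 (SE 0.094) in granule, -0.02 (SE 0.088) in excitatory, 0.00 (SE 0.077) in glycinergic and -0.01 (SE 0.09) in GABA neurons. Scn1a, Scn8a, Unc79 and Unc80 were between -0.14 and 0.09 in the 4 neuron types. These SEs bound how large a difference could have gone unseen.

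Outside neurons 0 channel genes were called, and the values given here are from fits without the replicate block. In oligodendrocytes 4 of 28 had an unadjusted p under 0.05, where 6.07% of all genes did, led by Cacna1e with 31.7, 31.7 and 28.1 CPM in CIH, against 20.3, 25.3 and 23.8 CPM in Normoxia, at 0.37 (SE 0.142, adjusted p = 0.804). Unc80 was at 0.36 (SE 0.147, adjusted p = 0.804) there, and the granule markers summed to 58.6, 50.0 and 14.6 CPM in oligodendrocytes in CIH, against 30.2, 26.8 and 17.5 CPM in Normoxia. Cacna1e stood at 4.21 to 6.48% of its neuronal level in oligodendrocytes, and Unc80 at 4.52 to 8.0%. The neuron markers stood at 6.5 to 8.21%, so both RNAs were near or below the level of the neuron markers. The part of neuronal RNA in these CIH values was not tested. In astrocytes 1 of 11 channel genes had an unadjusted p under 0.05, where 5.66% of all genes did. This was Cacnb2, which had 231, 151 and 262 CPM in CIH, against 334, 323 and 365 CPM in Normoxia, at -0.60 (SE 0.199, adjusted p = 0.612). In oligodendrocyte precursors it was 1 of 15, where 5.63% of all genes had such a p, and again Cacnb2, which had 377, 284 and 277 CPM in CIH, against 415.5, 452 and 461 CPM in Normoxia, at -0.54 (SE 0.202, adjusted p = 0.744). Cacna1d there was at 0.34 (SE 0.218, adjusted p = 0.956). Every CIH library was lower for Cacnb2 in both of these types, without a call. In microglia it was 1 of 13, where 4.81% did, namely Cacnb4 at -0.79 (SE 0.334, adjusted p = 0.982). Cacna1a in microglia was at -0.47 (SE 0.241, adjusted p = 0.982) and Unc79 in astrocytes at -0.54 (SE 0.308, adjusted p = 0.909), both with overlapping groups. In endothelial cells only Cacna1a was tested, at 0.10 (SE 0.274), and 0 of 1 had such a p, where 6.56% of all genes did. Hcn2 in oligodendrocytes, its highest type, was at -0.13 (SE 0.135) with overlapping groups.

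The CIH effect was also compared between excitatory and inhibitory neurons, where 0 of 31 channel genes were called and 0.0231% of all genes were. At an unadjusted p under 0.05 it was 0 of 31, where 5.48% of all genes had such a p. The smallest p there belonged to Cacna1g, at -0.20 (SE 0.127, limma, adjusted p = 0.918).

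**Figure D5:**
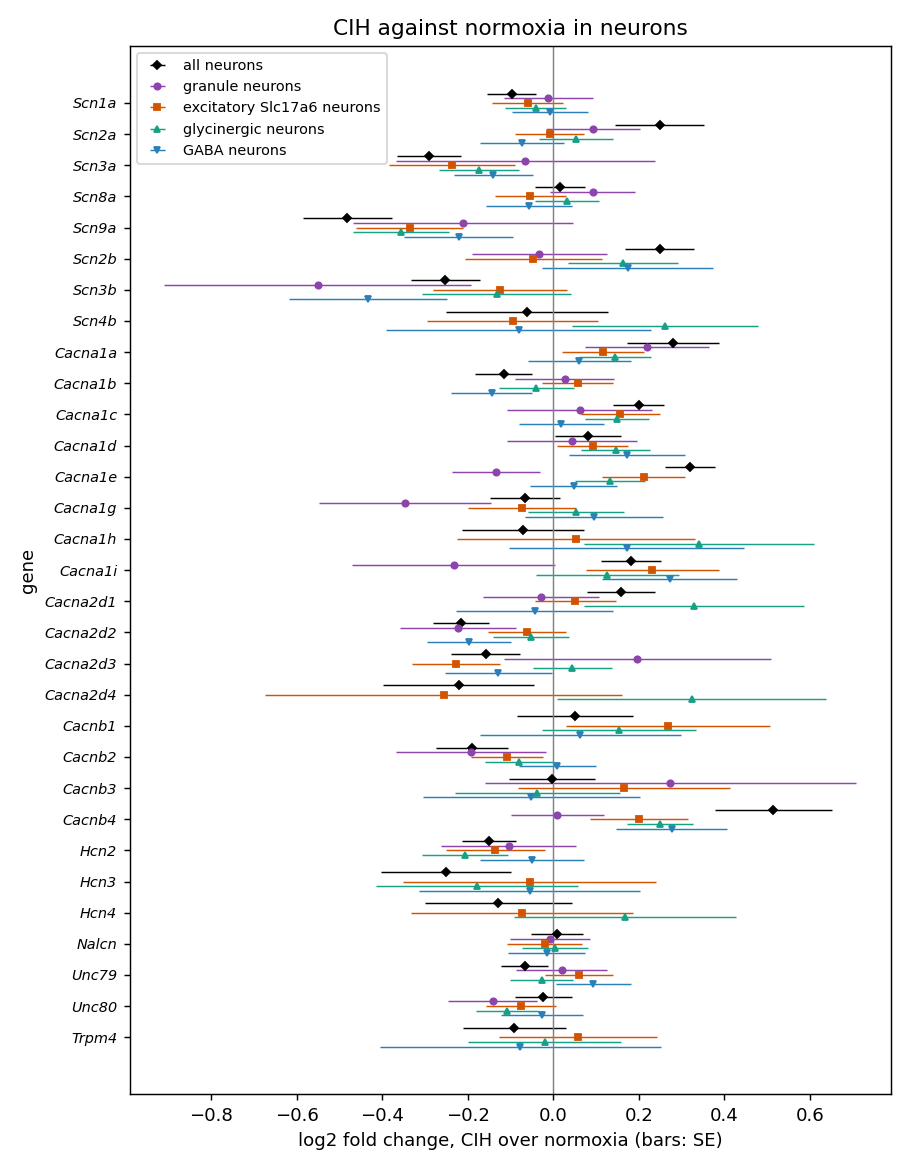
Log2 fold change of CIH over Normoxia (x axis, bars are SE) for 31 channel genes (y axis) in all neurons and in 4 neuron types. Cacnb4 and Cacna1e lie farthest to the right in all neurons and Scn9a farthest to the left, and in granule neurons Cacnb4 is near 0 and Cacna1e below it.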

How the data were processed

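The deposited files hold raw counts of UMIs per gene and barcode, produced by the authors with Cell Ranger (6.1.2 in the file headers, 3.1.0 in the submitters' processing notes, where Seurat 4.0 and mm10 are also listed). Whether intronic reads or strand entered the counts is not given in the sources used here. Counts of kept nuclei were summed per library and type (at least 20 nuclei in each library). Nuclei with markers of several classes or with too few markers of any, 6193 in all, were left out of every type. They were kept in the sum of all nuclei, with no other doublet step. Sums were compared with edgeR 4.0.16 (R 4.3.3, filterByExpr, library as a term between types), and differences in effect with limma 3.58.1 on log2 CPM with a prior count of 1. Deviations of libraries with the same replicate number correlated at over 0.1 in every pair only in oligodendrocytes (0.161 to 0.441). In all neurons the correlations were 0.067 to 0.284. The same libraries supply every type, so these values do not settle whether the numbers pair the samples. The CIH values, also those in oligodendrocytes, come from fits without a replicate block unless the block is named. Alternatives were RLE size factors, DESeq2 1.42.0, no filter, a replicate block, no library term, each library left out, a stricter nucleus filter (1000 genes, 1% mitochondrial UMIs), other gate margins and, for differences in effect, a prior count of 5. Chosen after seeing the data were dropping the shared barcodes, the sum of typed neurons without granule neurons and 3 of 9 type contrasts. The sum of typed neurons also leaves out the 9949 neurons that fitted no neuron type. Scripts were tested on simulated data. The channel genes, their families, the 25 partner genes and the markers were chosen with earlier results of these data known. Named are the 3 called genes of smallest p per direction and type contrast, the 2 of smallest p per CIH sum, the 1 of smallest p per difference in effect, and others for their role or level, chosen after their values were seen. GENCODE M21 positions matched 32235 genes. Of the channel genes 0 overlap another gene on the same strand and 17 one on the other strand. Serotonergic and cholinergic neurons, mural cells and fibroblasts were too few for a test. Further software was matplotlib 3.10.9, pandas 2.3.3, numpy 2.4.6, scipy 1.17.1 and Python 3.11.15.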

Additional observations from a re-analysis of the deposited data

How the results depend on the processing

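In CIH against Normoxia the count of called channel genes in all neurons was 0 in the main analysis, 3 with DESeq2 (Cacna1e, Cacnb4 and Scn9a, where 1.81% of all genes were called), 2 with the replicate block (Cacna1e and Cacnb4, where 1.05% were) and 0 to 3 when a library was left out, the 3 being without CIH library 3. It ran from 0 to 3 in all nuclei on leaving out a library, again with 3 without CIH library 3. It was 1 in glycinergic neurons with no filter on low counts (Scn9a at -0.38, adjusted p = 0.00822), where 0.801% of all genes were called. Between types, the count lower in glycinergic neurons was 6 without the library term, where 7.92% of all genes were lower, and 5 to 9 when a library was left out (5 without Normoxia library 2, where 9.35% of all genes were lower), and that lower in oligodendrocyte precursors was 0 to 1 (0 without CIH library 1, Normoxia library 1 or Normoxia library 3, where 13.8, 12.7 and 12.7% of all genes were lower). With no gate margin 13 were higher in oligodendrocytes, where 29.6% of all genes were, and 4 were higher and 14 lower in astrocytes, where 22.5 and 21.4% of all genes were, and Cacnb2 there lost its call at 0.17. Signs turned for Cacna1a in endothelial cells, 0.10 in the main analysis, at -0.19 without CIH library 3, -0.60 in the stricter nuclei and -0.00 with no gate margin, and leaving out a library gave -0.19 to 0.32. Unc80 in oligodendrocytes turned to -0.02 with no gate margin. The cause of these changes was not tested. Whether libraries with the same number are paired is not settled, as the same libraries supply every type. In oligodendrocytes the replicate block called 0 channel genes, where 0.897% of all genes were called, and beyond Cacna1e and Cacnb4 in all neurons it changed no call of a channel gene in the 11 sums. Low counts limit Hcn3, Hcn4, Scn4b, Trpm4 and Cacna2d4, and 3 libraries per group limit the CIH comparison. The CIH calls made without CIH library 3 rest on CIH libraries 1 and 2, the nearest pair, whose independence is not given in the labels.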

Other observations

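Serotonergic and cholinergic neurons, 154 and 174 nuclei in all, were too few in some libraries for a test, so their levels are values only. Cacna2d1 had a median of 672 CPM over the 6 libraries in serotonergic neurons and 524 CPM in cholinergic neurons, between the levels of excitatory and inhibitory neurons. Cacna2d3 had a median of 342 CPM in serotonergic and 509.6 CPM in cholinergic neurons. Cacna1a had 1552, 1164 and 1255 CPM in serotonergic neurons in CIH, against 1479, 1351 and 1195 CPM there in Normoxia, with overlapping groups. Nalcn, studied in respiratory chemoreceptor neurons, had 315, 367 and 411 CPM in serotonergic neurons in CIH, against 351, 389 and 336 CPM in Normoxia, also with overlap. In cholinergic neurons, which include motor neurons, Hcn2 lay between 59.7 and 80.3 CPM. Scn9a had 288, 246 and 278 CPM in serotonergic neurons in CIH, against 340.4, 459 and 449 CPM there in Normoxia, without overlap, and was not tested.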
